A study of Mus musculus with 4 samples.

Results

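The genes described here serve protein folding and translocation in the endoplasmic reticulum (ER). They were chosen by name, with earlier results of these data known, as 47 genes of known role. The roles are chaperones, disulfide isomerases and oxidases, translocation and N-glycosylation factors, degradation factors, and regulators of the unfolded protein response. Of the 47 genes, 45 had a probe on the array, 67 probes in all. The filter on dim probes was passed by 38 genes, which were tested among 9352 tested genes. RNA of isolated pancreatic islets from mice aged 12 weeks, on a C57BL/6 background, was hybridised to 4 Illumina bead arrays. The wild type group and the knockout group had 2 arrays each. In the knockout group the gene for the type I bone morphogenetic protein receptor, Bmpr1a, was deleted under control of Pdx1, a gene active in pancreatic progenitors and in beta cells. The labels give no Cre transgene for the wild type group, so effects of the transgene and of the deletion cannot be told apart. They also do not say whether arrays of a genotype came from separate mice, so the p-values reflect the spread between these arrays alone, which may be technical.

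Secreted and membrane proteins enter the ER through the Sec61 channel, where signal peptidase removes the leading peptide and oligosaccharyltransferase attaches N-glycans. Chaperones of the Hsp70 and Hsp90 families, lectin chaperones and protein disulfide isomerases then fold them, and proteins that fail to fold are drawn back to the cytosol and degraded. Beta cells make large amounts of disulfide-bonded proinsulin and rely on this machinery. When unfolded proteins build up, the sensors encoded by Ern1, Atf6 and Eif2ak3 start the unfolded protein response, which raises transcription of many of the genes described here.

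Many of these genes are known targets of Atf6 and Xbp1 through the ER stress element, a promoter motif read as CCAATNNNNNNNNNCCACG. The RefSeq promoter table (build GRCm38.p6, 250 bases before to 50 bases after a gene's start) held 39 of the 47 genes. The others were Hyou1, Manf, Sec61a1, Ssr2, Spcs3, Ostc, Derl1 and Atf6. On either strand, the element was found in 10 of the 39 genes (25.6%), against 37 of the 27025 genes of the table (0.137%), or 39 of its 32851 promoters (0.119%). A second form, element II, read as ATTGGNCCACG, was found in Herpud1 and Dnajb11, against 12 genes of the table (0.0444%) and 0.0365% of promoters. A further motif, TGACGTGG, was found in Txndc5 and Txndc11, against 193 genes of the table (0.714%) and 0.676% of promoters. No promoter of these genes held more than 1 of the 3 motifs, although both ER stress elements end in the same letters. The copies are shown because 12 of the 39 genes hold either ER stress element. The fixed letters are in capitals and the spacer in lower case, each copy read 5′ to 3′ from its CCAAT or ATTGG end.
Hspa5: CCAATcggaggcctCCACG
Hsp90b1, nearer the start: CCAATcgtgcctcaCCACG
Hsp90b1, farther from the start: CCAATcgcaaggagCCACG
Calr: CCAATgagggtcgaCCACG
Canx: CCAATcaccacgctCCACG
Dnajc3: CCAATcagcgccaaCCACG
Creld2: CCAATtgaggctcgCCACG
Pdia6: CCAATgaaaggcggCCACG
Ero1b: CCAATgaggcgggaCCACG
Syvn1: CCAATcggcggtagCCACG
Derl3: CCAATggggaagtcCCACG
Herpud1, element II: ATTGGgCCACG
Dnajb11, element II: ATTGGcCCACG
Copies of the first form began between 212 and 44 bases before the gene's start, and their spacers were 66.7% to 77.8% G or C. Element II began 52 bases before the start in Herpud1 and past the start in Dnajb11, with a G or C as spacer. In Calr, Creld2, Ero1b, Derl3 and the nearer copy of Hsp90b1 the element ran opposite to the gene. A match of letters is a description and not a measured binding site.

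Between 14785 and 16171 of 46632 probes were detected per array (detection p below 0.05). Median raw intensities were 76.8 to 81.5, and precision is limited by how few arrays there are. The brightest of 2 Bmpr1a probes changed by -0.28 ± 0.14 on the log2 scale (knockout minus wild type, standard error of the fit, adjusted p = 0.204). Its place relative to the deleted part is not known here, so it does not check the genotype labels. All 14 beta cell markers and all 9 alpha cell markers on the array were detected on at least 1 array.

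Among the 38 tested ER genes, 10 rose in knockout islets, 1 fell and 27 did not pass the test (limma, adjusted p below 0.05 over all tested probes). Of all tested genes 14.5% rose and 11% fell. In bulk islet RNA, a change in the number of cells of a type and a change in RNA per cell cannot be told apart. The median change of the tested ER genes was 0.27 on the log2 scale, against 0.06 over all tested genes, and 32 of the 38 had a positive value (84.2%), against 55.9% of all tested genes. The knockout arrays lay above both wild type arrays in 23 of the 38 and below both in 1, where all tested genes gave 39.8% and 28.7%. Rpn1, Atf6 and Derl3 passed the filter on dim probes only through the knockout arrays. Among the 35 ER genes detected on all 4 arrays, 8 rose and 1 fell, with a median of 0.25. Of the 8216 genes detected on all 4 arrays, 13% rose and 9.18% fell, with a median of 0.05. With median scaling, which moved the median of all tested genes to 0.25, 17 ER genes rose and 0 fell, with a median of 0.51 for these genes. By that scaling 74.8% of all called genes were higher, where it was 56.8% with quantile normalization. Leaving out wild type 1, wild type 2 or knockout 1 left 2, 3 and 5 ER genes that rose, and leaving out knockout 2 left 11.

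**Figure D1:**
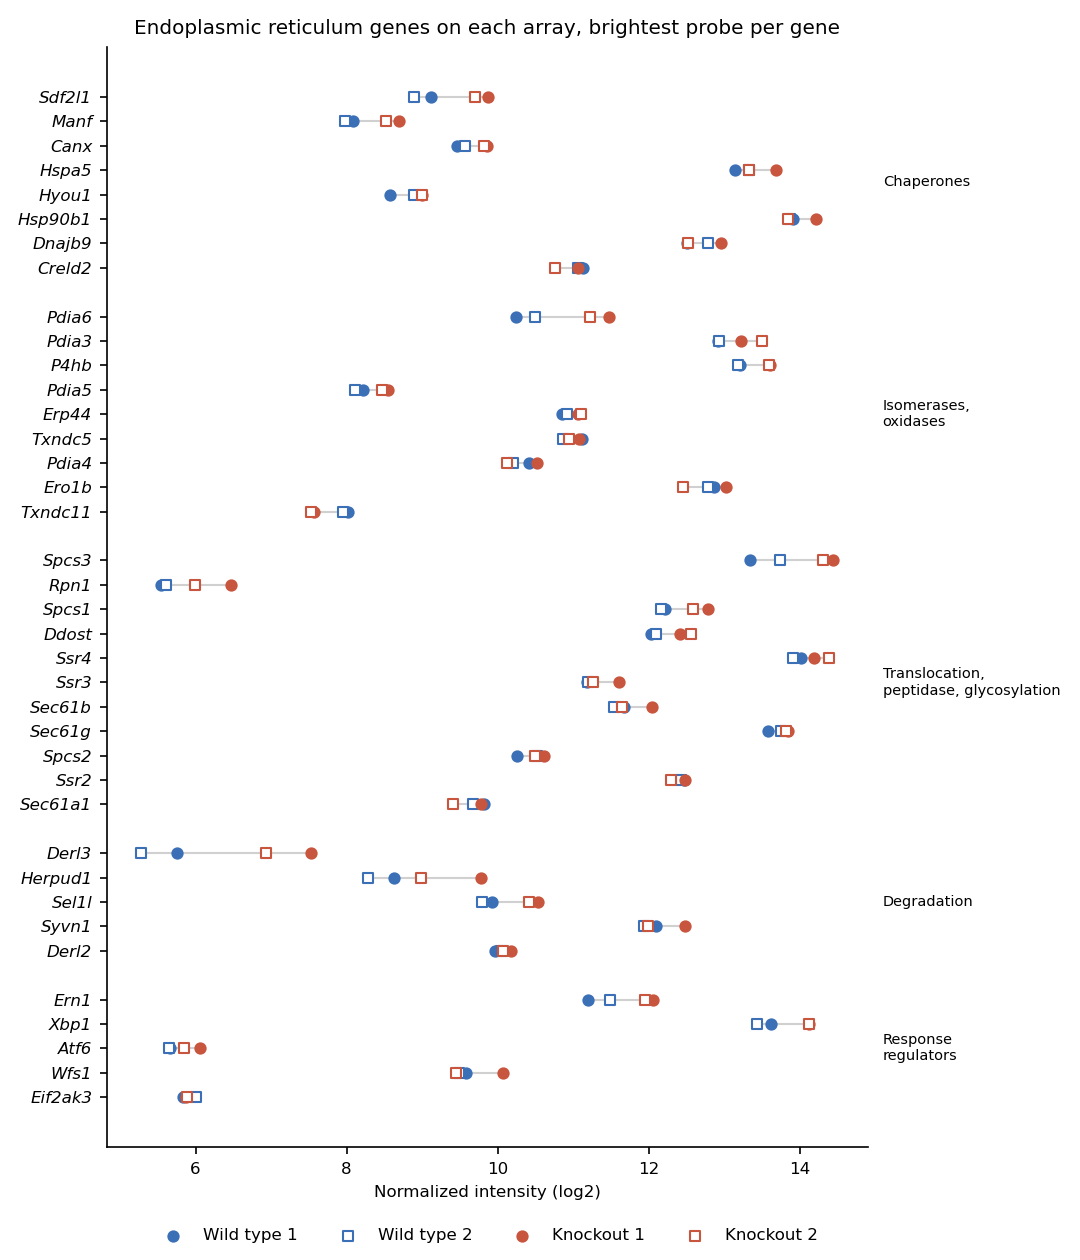
Normalized log2 intensity of the 38 tested ER genes on each array, 1 row per gene and brightest probe, grouped by role; blue marks wild type, red marks knockout, filled circles array 1 and open squares array 2. Derl3, Pdia6, Spcs3, Ern1 and Sdf2l1 show both knockout arrays to the right of both wild type arrays, while Hspa5, Hsp90b1 and Dnajb9 overlap.

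**Figure D2:**
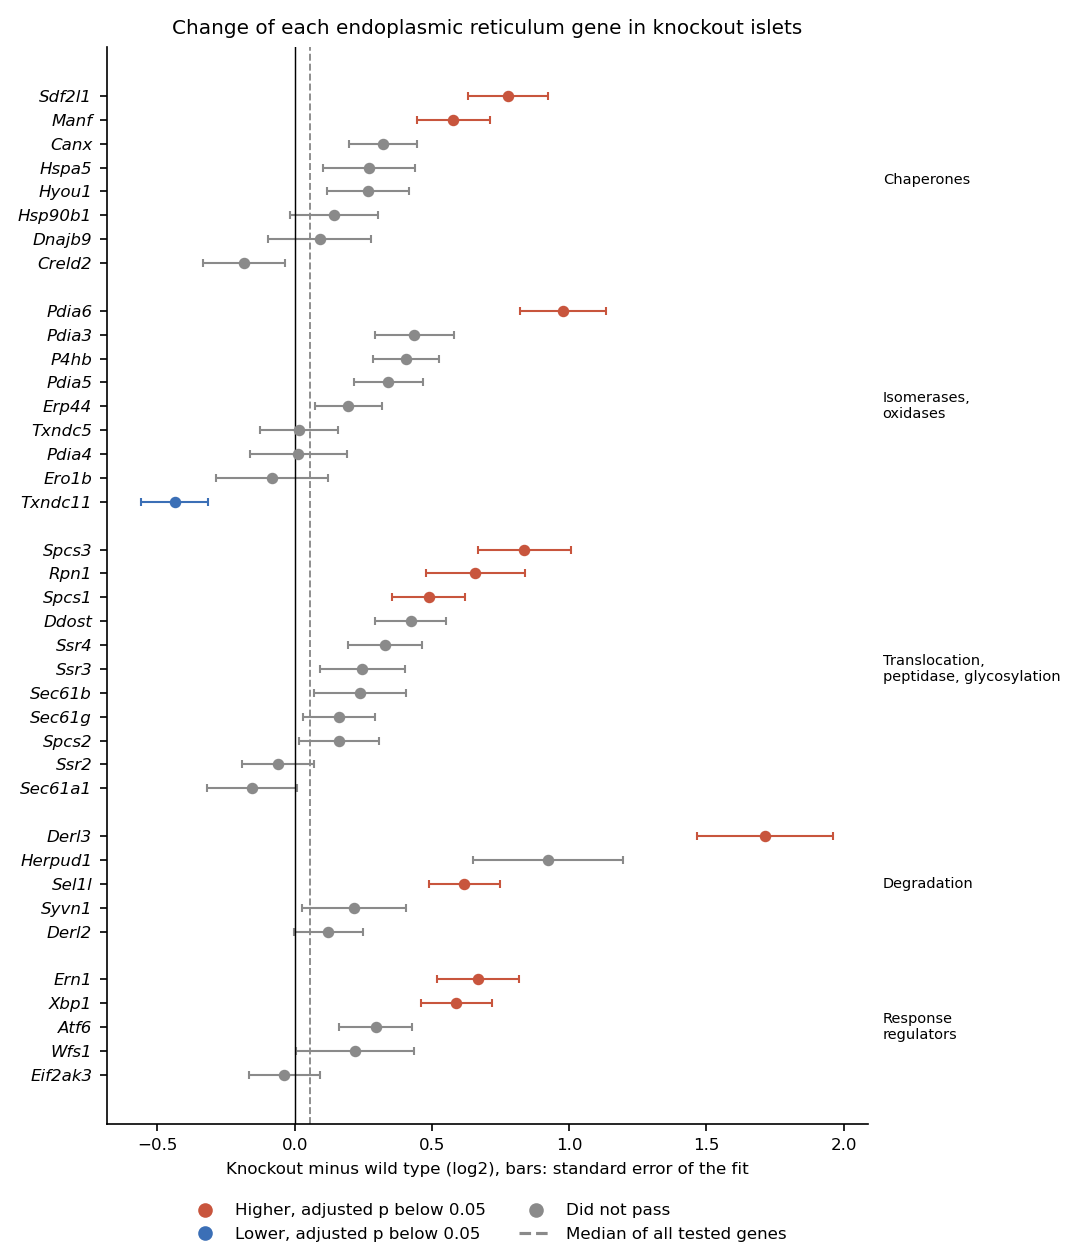
Knockout minus wild type change of each tested ER gene on the log2 scale with the standard error of the fit, n = 2 arrays per genotype; red rose, blue fell and grey did not pass. The dashed line is the median of all tested genes, 0.06, and the largest value is 1.71 for Derl3.

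Among the chaperones and their cofactors, 2 of 8 tested genes rose and 0 fell, where 14.5% and 11% of all tested genes did. The median change was 0.27, against 0.06. Sdf2l1, a luminal cofactor of DnaJ chaperones, gave raw intensities of 566 and 521 in wild type islets (arrays 1 and 2, the order used throughout) and of 1106 and 917 in knockout islets. Both knockout arrays were higher, and the normalized value rose by 0.78 ± 0.15 (SE, adjusted p = 0.0133). It no longer passed when wild type 2 was left out (adjusted p = 0.096). Manf, a luminal protein secreted upon ER stress, gave 311 and 308 in wild type and 508 and 434 in knockout islets. The groups did not overlap, and Manf rose by 0.58 ± 0.13 (adjusted p = 0.0247), which did not pass when wild type 1, wild type 2 or knockout 1 was left out (adjusted p = 0.0982, 0.148 and 0.0696).

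The main Hsp70 chaperone of the ER, Hspa5 (BiP), gave raw intensities of 8831 and 10781 in wild type and 13242 and 9890 in knockout islets. Its groups overlapped, with knockout 1 the highest array and knockout 2 between the wild type arrays, and the change of 0.27 ± 0.17 did not pass (adjusted p = 0.271). Among the chaperone promoters with the ER stress element, its copy lies nearest to the start, and the promoter is shown whole, with that element in capitals, for comparison with promoters of genes that rose (chr2:34771840-34772139, plus strand).
Hspa5: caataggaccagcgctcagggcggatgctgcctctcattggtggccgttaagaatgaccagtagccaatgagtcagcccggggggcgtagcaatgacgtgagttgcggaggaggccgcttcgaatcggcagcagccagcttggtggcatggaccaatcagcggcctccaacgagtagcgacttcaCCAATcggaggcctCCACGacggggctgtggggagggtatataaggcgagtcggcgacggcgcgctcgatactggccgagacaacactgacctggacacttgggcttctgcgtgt
Hsp90b1 (Grp94), the Hsp90 chaperone of the ER, gave 15017, 15643, 19156 and 14802 on wild type 1, wild type 2, knockout 1 and knockout 2, again with knockout 1 alone above the rest. Its change was 0.14 ± 0.16 (adjusted p = 0.540). Dnajb9, a DnaJ cofactor of Hspa5, showed the same order of knockout arrays, with 5344 and 7116 in wild type against 8261 and 6100.3 in knockout islets (0.09 ± 0.19, adjusted p = 0.747).

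Canx, a membrane lectin chaperone, gave 697 and 790.1 in wild type and 1094 and 994 in knockout islets. The arrays did not overlap, but the change of 0.32 ± 0.12 did not pass (adjusted p = 0.107); it passed with median scaling (0.62, adjusted p = 0.0258). Hyou1, a large Hsp70-type chaperone and exchange factor, changed by 0.27 ± 0.15 (adjusted p = 0.235). Creld2, a disulfide isomerase-like protein induced by ER stress, was the lowest of the group at -0.19 ± 0.15 (adjusted p = 0.401), with knockout 2 below the other arrays after normalization. Calr and Dnajc3 were not detected on any array, and Dnajb11 had no probe listed under its symbol.

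Of 9 tested disulfide isomerases and oxidases, 1 rose and 1 fell, against 14.5% and 11% of all tested genes. The median change was 0.20, against 0.06. Pdia6, an isomerase that also restrains the sensor encoded by Ern1, gave raw intensities of 1139 and 1441 in wild type and 3199 and 2526 in knockout islets. Both knockout arrays were well above both wild type arrays, and Pdia6 rose by 0.98 ± 0.16 (adjusted p = 0.00807). Without wild type 1 the change was 0.84 and the call was lost (adjusted p = 0.063). A dimmer Pdia6 probe rose as well, by 0.70 ± 0.17 (adjusted p = 0.0322). The Pdia6 promoter lies at chr12:17266339-17266638 (plus strand) and is shown because the gene rose and holds the element in the gene's own orientation, in capitals.
Pdia6: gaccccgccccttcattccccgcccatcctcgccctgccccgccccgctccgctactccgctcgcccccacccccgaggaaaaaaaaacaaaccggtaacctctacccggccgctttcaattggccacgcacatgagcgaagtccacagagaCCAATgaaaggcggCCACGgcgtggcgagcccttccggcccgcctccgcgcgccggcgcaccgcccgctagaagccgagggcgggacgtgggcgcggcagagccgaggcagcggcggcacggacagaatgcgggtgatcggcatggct

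P4hb, the classical protein disulfide isomerase, gave 9117 and 9551 in wild type and 12798 and 12315 in knockout islets. Its groups did not overlap, and the change of 0.41 ± 0.12 lay just short of the threshold (adjusted p = 0.0536). It passed under 8 of 14 alternatives (values of 0.37 to 0.52), among them the values the authors deposited. Pdia3, the isomerase that works with Calr and Canx on glycoproteins, gave 7365 and 7929 against 9851 and 11541, likewise without overlap (0.44 ± 0.14, adjusted p = 0.0721; it passed under 6 alternatives). Pdia5 changed by 0.34 ± 0.13 with its brightest probe (adjusted p = 0.0966). Its dimmer probe, detected on 3 arrays, rose by 1.13 ± 0.15 (adjusted p = 0.00393) but passed the filter only through the knockout arrays. The raw intensities of that probe were near background, 102 and 108 in wild type and 175 and 155 in knockout islets. Erp44, which retains unfinished proteins and oxidases in the early secretory pathway, changed by 0.20 ± 0.12 (adjusted p = 0.277). Pdia4 and Txndc5, both multi-domain isomerases, had values of 0.01 ± 0.18 and 0.02 ± 0.14 (adjusted p = 0.963 and 0.939).

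Txndc11, a membrane thioredoxin-like protein, was the only tested ER gene that fell with its brightest probe. It gave 299.8 and 305 in wild type and 255 and 245 in knockout islets, with no overlap, and fell by 0.44 ± 0.12 (adjusted p = 0.0448). The call was lost when any 1 of the 4 arrays was left out (adjusted p = 0.0822 to 0.212), and with median scaling (-0.25), an intensity trend, the replicate block (adjusted p = 0.0651) or the mean over its probes (-0.20). Its other tested probe was at 0.03 ± 0.30 (adjusted p = 0.945). Ero1b, the islet-enriched oxidase that recharges the isomerases, gave 6943 and 7141 in wild type and 8662 and 5853 in knockout islets with its brightest probe. The knockout arrays lay on either side of the wild type arrays, and the change was -0.08 ± 0.20 (adjusted p = 0.789), or 0.11 with median scaling. Its dimmer probe, annotated to a cDNA clone rather than to the RefSeq transcript, gave 595 and 764 against 241 and 199.7 and fell by 2.05 ± 0.17 (adjusted p = 0.000735). With the mean over both probes Ero1b fell by 1.07 (adjusted p = 0.00695). Ero1l, the related oxidase listed on the array as Ero1a, was not detected on any array.

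**Figure D3:**
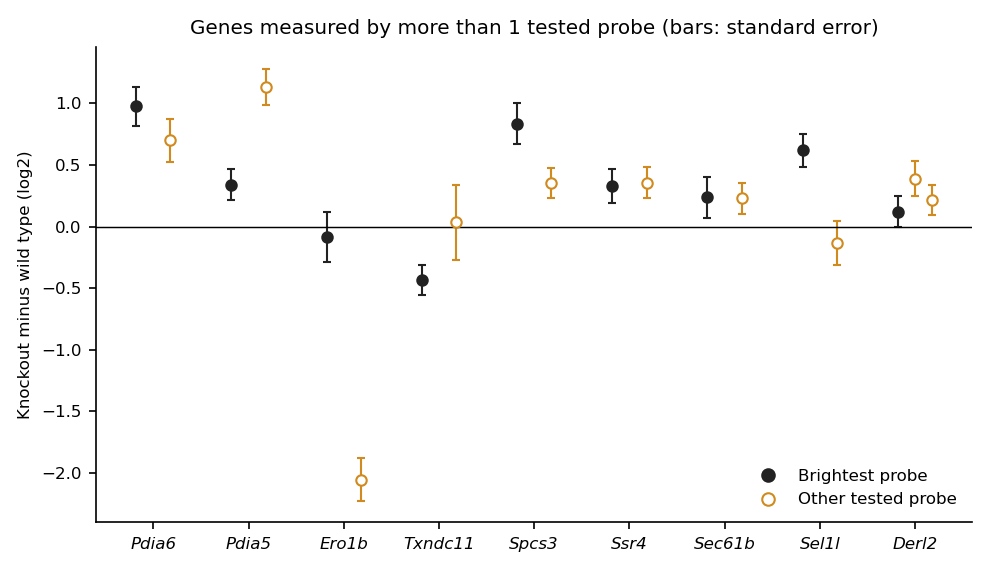
Change on the log2 scale (knockout minus wild type, standard error) of every tested probe of the 9 ER genes with more than 1 tested probe; filled points are the brightest probe. The probes of Ero1b stand furthest apart, at -0.08 and -2.05, while those of Ssr4 and Sec61b lie within a standard error of each other.

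In the group for translocation, signal peptide removal and N-glycosylation, 3 of 11 tested genes rose and 0 fell, with a median change of 0.25. Without Rpn1, which passed the filter only through the knockout arrays, 2 of 10 rose, with a median of 0.24. Of all tested genes 14.5% rose and 11% fell, with a median of 0.06. Spcs3, a subunit of signal peptidase, gave raw intensities of 9951 and 14207 in wild type and 21957 and 19753 in knockout islets. The wild type arrays differed from each other, but both lay below the knockout arrays, and Spcs3 rose by 0.84 ± 0.17 (adjusted p = 0.0164). It did not pass when wild type 1 or knockout 1 was left out (adjusted p = 0.0983 and 0.0518), nor with no filter on dim probes (adjusted p = 0.0552). Its dimmer probe changed by 0.36 ± 0.12 (adjusted p = 0.0806). Spcs1, a further subunit, gave 4335 and 4529 against 7473 and 6379 and rose by 0.49 ± 0.13 (adjusted p = 0.0415). It did not pass when wild type 1, wild type 2 or knockout 1 was left out (adjusted p = 0.165, 0.203 and 0.102), nor with no filter (adjusted p = 0.0588). Spcs2, the remaining subunit among the genes described here, changed by 0.16 ± 0.15 (adjusted p = 0.453), with overlapping groups.

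Rpn1, a subunit of oligosaccharyltransferase, was not well above background on either wild type array and was at least 1.46-fold higher in knockout islets (adjusted p = 0.0429). That bound holds only for the background correction used: the fitted change of 0.66 on the log2 scale was 0.42 with an offset of 50, 0.38 without correction and 0.38 with the authors' deposited values. Its raw intensities were low throughout, 104 and 103 in wild type and 145 and 119 in knockout islets, and the call was lost under 8 of 13 alternatives, among them leaving out either wild type array (adjusted p = 0.18 and 0.158) or knockout 1 (0.41, adjusted p = 0.0989). Ddost, another subunit of the same enzyme, gave 3868 and 4319.7 against 5949 and 6237 without overlap, and its change of 0.42 ± 0.13 did not pass (adjusted p = 0.057), although it did under 7 alternatives. Rpn2 and the subunit Ostc were not detected on any array.

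The channel subunits did not pass. Sec61a1, which forms the pore, was at -0.15 ± 0.16 (adjusted p = 0.521). The small subunits Sec61b and Sec61g were at 0.24 ± 0.17 and 0.16 ± 0.13 (adjusted p = 0.335 and 0.396), with a further Sec61b probe at 0.23. The translocon-associated Ssr proteins, which assist entry of chosen signal sequences, also did not pass. Ssr4 had the largest value of these, 0.33 ± 0.14 (adjusted p = 0.125), with 16394 and 15921 in wild type and 18924 and 21303 in knockout islets and no overlap. Ssr3 was at 0.25 ± 0.15 and Ssr2 at -0.06 ± 0.13 (adjusted p = 0.280 and 0.755), and Ssr1 had no probe listed under its symbol.

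In the degradation group 2 of 5 tested genes rose and 0 fell, with a median change of 0.62. Without Derl3, which passed the filter on dim probes only through the knockout arrays, 1 of 4 rose and the median was 0.42. All tested genes had a median of 0.06, and 14.5% of them rose and 11% fell. Derl3, a membrane protein of the channel that returns misfolded proteins to the cytosol, had the largest change of all tested ER genes. Its raw intensities were 113 and 86.8 in wild type and 251 and 179.6 in knockout islets, and it was not detected on wild type 2. It rose by 1.71 ± 0.25 (adjusted p = 0.00541) and was the only one of the 11 called ER genes that kept its call under all 14 alternatives. The size depended on how background was treated, with 1.08 without correction and 1.03 with the authors' deposited values. Without any 1 array it lay between 1.38 and 2.00 (adjusted p up to 0.0405). The Derl3 promoter (chr10:75893148-75893447, plus strand) is shown because the gene changed most. Its element runs opposite to the gene, so its capitals read CGTGG and ATTGG.
Derl3: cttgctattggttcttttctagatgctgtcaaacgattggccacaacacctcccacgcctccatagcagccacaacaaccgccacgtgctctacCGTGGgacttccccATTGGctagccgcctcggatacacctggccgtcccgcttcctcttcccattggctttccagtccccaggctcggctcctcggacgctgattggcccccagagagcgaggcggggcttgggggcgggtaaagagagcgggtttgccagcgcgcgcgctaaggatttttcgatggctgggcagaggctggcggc

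Sel1l, the adaptor of the ubiquitin ligase encoded by Syvn1, gave 927 and 914 in wild type and 1717 and 1488 in knockout islets. The arrays did not overlap, and Sel1l rose by 0.62 ± 0.13 (adjusted p = 0.0193). When wild type 1, wild type 2 or knockout 1 was left out it did not pass (adjusted p = 0.0813, 0.13 and 0.0521). A much dimmer probe, annotated to a cDNA clone, was at -0.13 ± 0.18, and the mean over both was 0.24 (adjusted p = 0.228). Syvn1 itself (Hrd1) gave 4011 and 3865 in wild type and 6234 and 4231 in knockout islets, and its change of 0.22 ± 0.19 did not pass (adjusted p = 0.435).

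Herpud1, which assembles that ligase complex, gave 420.2 and 365 in wild type and 1030.0 and 579.5 in knockout islets. Both knockout arrays were higher, but they differed widely from each other, and the change of 0.92 ± 0.27 did not pass (adjusted p = 0.0534). It passed under 8 of 14 alternatives, including the replicate block (adjusted p = 0.0107), and without knockout 2 (1.31, adjusted p = 0.00914), whereas it was 0.52 without knockout 1. Its promoter (chr8:94386179-94386478, plus strand) is the only one among the tested ER genes with element II, in capitals, and is shown for that reason.
Herpud1: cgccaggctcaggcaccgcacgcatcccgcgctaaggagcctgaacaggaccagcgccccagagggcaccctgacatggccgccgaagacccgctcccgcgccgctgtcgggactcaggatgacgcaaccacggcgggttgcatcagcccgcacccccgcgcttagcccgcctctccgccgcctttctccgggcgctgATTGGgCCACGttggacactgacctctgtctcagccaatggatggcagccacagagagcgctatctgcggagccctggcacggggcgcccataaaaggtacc
Derl2 changed by 0.12 ± 0.13 with its brightest probe and by 0.39 and 0.22 with the other probes, none past the test. Derl1 was not detected on any array, and Edem1, a mannosidase-like lectin that marks glycoproteins for degradation, was detected with 1 of its 3 probes, on wild type 1 and knockout 1.

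Among the sensors and regulators of the unfolded protein response, 2 of 5 tested genes rose and 0 fell, with a median change of 0.29. Without Atf6, which passed the filter only through the knockout arrays, 2 of 4 rose, with a median of 0.40. Over all tested genes 14.5% rose and 11% fell, with a median of 0.06. Ern1 encodes Ire1, the kinase and nuclease that splices Xbp1 mRNA. It gave 2164 and 2851 in wild type and 4726 and 4085 in knockout islets, without overlap, and rose by 0.67 ± 0.15 (adjusted p = 0.0228). The change fell short of the threshold when wild type 1, wild type 2 or knockout 1 was left out (adjusted p = 0.146, 0.0565 and 0.0632), and also with no filter (adjusted p = 0.0555). Xbp1, the transcription factor made from the spliced mRNA, gave 11941 and 11714 in wild type and 17859 and 17308 in knockout islets. The arrays of each genotype lay close together, and Xbp1 rose by 0.59 ± 0.13 (adjusted p = 0.0223). With either wild type array left out it did not pass (adjusted p = 0.0805 and 0.15), nor with cyclic loess (0.41, adjusted p = 0.0604). Whether its probe separates spliced from unspliced mRNA is not known here.

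The other sensors did not pass. Atf6, not well above background on the wild type arrays, did not pass (adjusted p = 0.156), with raw intensities of only 105 to 121. Its bound of 1.20-fold higher in knockout islets holds only for the background correction used. The fitted change of 0.29 on the log2 scale was 0.17 without that correction and 0.17 with the authors' deposited values. Eif2ak3, the sensor kinase Perk, was at -0.04 ± 0.13 (adjusted p = 0.856), with 117 and 123 in wild type and 113 and 115 in knockout islets. Wfs1, an ER membrane protein whose loss causes beta cell failure, gave 748 and 752 against 1246 and 775, with only knockout 1 apart from the rest (0.22 ± 0.21, adjusted p = 0.485).

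The 2 knockout arrays differed from each other in these genes in a shared direction. Knockout 1 was above knockout 2 in 31 of 38 tested ER genes (81.6%), with a median difference of 0.17 on the log2 scale, where 49.5% of all tested genes were in that order. The wild type arrays showed 22 of 38 in the same order, with a median difference of 0.04. Among the 9 tested genes with an ER stress element or element II, knockout 1 was higher in all 9, with a median difference of 0.37, and 7 of them differed by more than 0.3, as did 23.5% of all tested genes in either direction. Of 10 other tested genes that hold an element, knockout 1 was higher in 6 (60.0%), with a median difference of 0.10, and 3 differed by more than 0.3. Of the 23 tested genes whose promoter held neither element, 17 were higher on knockout 1, with a median of 0.11, and 6 differed by more than 0.3. The widest were Herpud1 (0.80), Wfs1 (0.62), Derl3 (0.60), Ero1b (0.57), Syvn1 (0.49), Rpn1 (0.47), Dnajb9 (0.43), Pdia4 (0.40), Sec61b (0.40) and Sec61a1 (0.37), followed by Hsp90b1 (0.37) and Hspa5 (0.36). Of these 12, Herpud1, Derl3, Ero1b, Syvn1, Hsp90b1 and Hspa5 hold an element, the promoters of Wfs1, Rpn1, Dnajb9, Pdia4 and Sec61b hold none of the motifs, and Sec61a1 is not in the table. Between genotypes the genes with and without an element were alike in median change, 0.27 and 0.25. Of those with an element 2 of 9 rose, and of those without 6 of 23 rose and 1 fell. Derl3, among the 2, and Rpn1, among the 6, passed the filter on dim probes only through the knockout arrays. Of 10 tested genes outside the list that hold an element, 2 rose, where 14.5% of all tested genes did. They were Lgalsl, in none of the pathway lists (1.03 ± 0.17, adjusted p = 0.00837), and Alg12 of the N-glycan assembly pathway (0.57 ± 0.12, adjusted p = 0.0191).

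**Figure D4:**
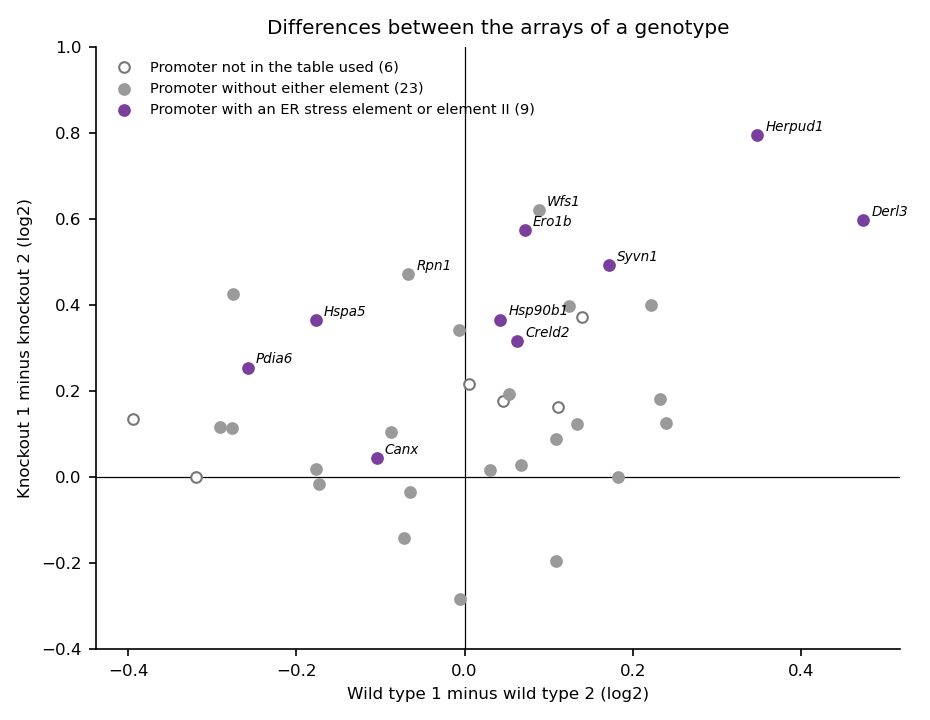
Difference between the 2 knockout arrays (vertical axis) against the difference between the 2 wild type arrays (horizontal axis), both on the log2 scale, for the 38 tested ER genes; purple points have an ER stress element or element II in the promoter, grey points have neither, and open points have no promoter in the table used. All 9 purple points lie above 0 on the vertical axis, up to 0.80 for Herpud1.

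Other genes of the same pathway, from lists drawn up for this comparison with earlier results of these data known, had a similar median. Of 157 tested, 31 rose and 3 fell, with a median change of 0.25 (14.5% and 11% of all tested genes). The 31 include genes that passed the filter only through the knockout arrays, and no count was made without them. Among 22 further N-glycosylation genes, 3 rose and 0 fell, and all 22 values were positive (median 0.36). Of 25 further targeting and translocation genes, 5 rose and 1 fell (median 0.31), including Srp14, of the signal recognition particle (0.75 ± 0.13), its receptor gene Srpr (0.62 ± 0.12) and the signal peptidase gene Sec11c (0.60 ± 0.13). Among 20 further isomerases and oxidoreductases, 6 rose and 1 fell (median 0.12), with Fkbp11, a prolyl isomerase, at 0.75 ± 0.13. Tmx3, Gpx7 and Gpx8, among the 6, were undetected on both wild type arrays and passed the filter only through the knockout arrays. Of 26 further degradation genes, 5 rose and 0 fell (median 0.25), led by the ubiquitin ligase gene Marchf6 (1.10 ± 0.15, adjusted p = 0.0046). Of 19 further chaperone genes, 3 rose and 1 fell (median 0.24). The gene that fell was Rcn3, a calcium-binding protein of the ER, by 1.21 ± 0.19. Rcn2, among the 3 that rose, also passed the filter only through the knockout arrays. ER exit and retrieval genes were nearest to the background, with 5 of 32 that rose, 0 that fell and a median of 0.08.

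Of 13 further regulators of the response, 4 rose and 0 fell (median 0.25), where 14.5% and 11% of all tested genes did. Creb3 rose by 0.56 ± 0.14, and the others were Trib3, Ddit3 and Atf4, which can act downstream of Eif2ak3. Eif2ak3 itself was at -0.04 ± 0.13, and whether its branch was active was not tested. Ppp1r15a and Ppp1r15b, of the same list, did not pass (-0.36 ± 0.43 and 0.11 ± 0.15, adjusted p = 0.570 and 0.625). Trib3 rose by 3.54 ± 0.40 (adjusted p = 0.00217), with normalized values of 6.09 and 6.12 in wild type and 8.98 and 10.30 in knockout islets. Ddit3 (Chop) rose by 1.01 ± 0.13 and the transcription factor Atf4 by 0.55 ± 0.14 (adjusted p = 0.00341 and 0.0363). Atf4 was named after its value was seen. On Trib3 knockout 2 was the higher array, opposite to the 9 tested genes with an ER stress element or element II.

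**Figure D5:**
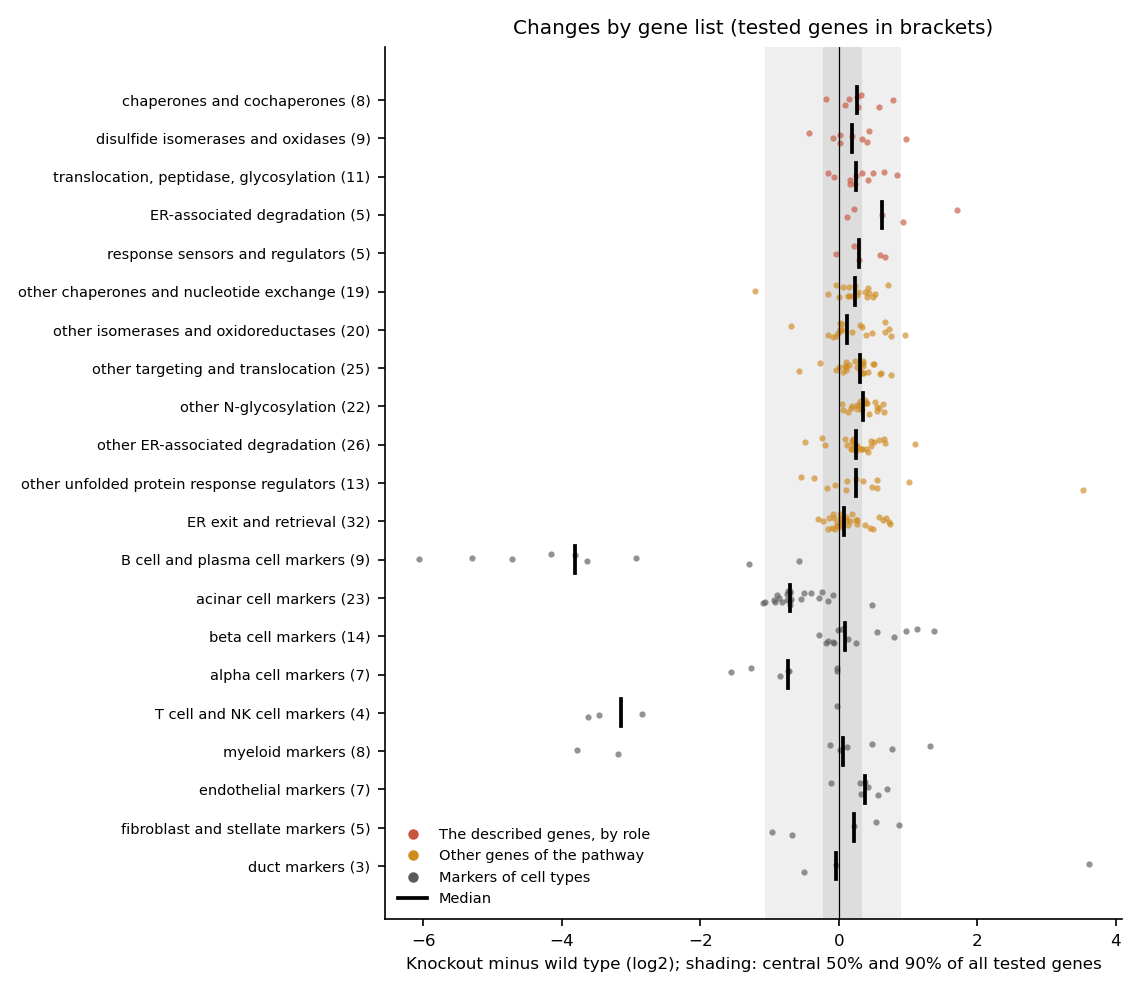
Knockout minus wild type change on the log2 scale of the tested genes of each list; points are genes, black bars are medians and shading covers the central 50% and 90% of all tested genes. The roles of the described genes have medians of 0.20 to 0.62, and the further pathway lists 0.08 to 0.36. The medians of B cell and acinar markers are -3.81 and -0.71, the first from a gene undetected on both knockout arrays.

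Plasma cells and acinar cells are also rich in ER, and markers of both fell in part or in full. For comparison with the counts below, 14.5% of all tested genes rose and 11% fell. Of 9 tested B cell and plasma cell markers, 9 fell, with a median change of -3.81, and their summed raw intensity was 9243 to 9648 in wild type and 682 to 935 in knockout islets. Sdc1, Prdm1 and Cr2 of that list were not detected on any array. Pou2af1, Tnfrsf13c, Fcrla, Jchain and Blk were undetected on both knockout arrays and passed the filter only through the wild type arrays. Their falls are bounds, from at least 1.45-fold (Blk) to at least 22.69-fold (Pou2af1). Mzb1 and Cd79b lay below the lowest detected value on knockout 1, and Ms4a1 did on knockout 2. These markers, too, passed the filter only through the wild type arrays, which leaves Cd79a. The median of -3.81 is the fitted value of Fcrla, whose bound is 10.88-fold. Of 23 tested acinar markers, 9 fell and 0 rose (median -0.71), with sums of 108218 and 139054 in wild type and 90206 and 95312 in knockout islets, and Ptf1a was not detected on any array. Beta cell markers had 4 of 14 that rose, 0 that fell and a median of 0.08, with sums of 105426 to 108284 and 118421 to 134724. Alpha cell markers had 5 of 7 that fell (median -0.73). Gcg and Ttr, the brightest of that list, did not pass (-0.02 ± 0.14 and -0.02 ± 0.12, adjusted p = 0.933 and 0.914). T cell and NK cell markers had 3 of 4 that fell. Those 3, Cd3d, Cd3e and Cd3g, were undetected on both knockout arrays and passed the filter only through the wild type arrays. They were at least 9.55-fold, 6.71-fold and 4.28-fold lower in knockout islets. Myeloid markers had 2 of 8 that rose and 2 that fell, and endothelial markers 1 of 7 that rose and 0 that fell. Fibroblast and stellate markers had 1 of 5 that fell, Pdgfra (-0.68 ± 0.16), and 0 that rose. Pdgfra and Lyz1, a myeloid marker that fell, lay below the lowest detected value on knockout 1. Both passed the filter only through the wild type arrays. Of 3 duct markers Sox9 fell (-0.50 ± 0.13), and Cftr, not well above background in the wild type, was at least 6.08-fold higher in knockout islets (adjusted p = 0.000121). The part of these cells in the values of the ER genes was not tested.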

How the data were processed

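Per the labels, RNA was extracted with Trizol and turned into biotin-labelled cRNA for Illumina arrays. Per the file headers, the deposited scanner table gives each probe's mean bead intensity on a linear scale and a detection p-value deposited by the authors. A further deposited table holds the authors' log2 values, whose first wild type column equals log2 of the raw intensity; for the other columns the scaling method is not given here. The raw intensities were corrected for background with normexp through the detection p-values (offset 16, limma 3.58.1, R 4.3.3), then quantile normalization. Tested were the 15639 probes with a detection p below 0.05 on each array of 1 genotype or of both. lmFit and eBayes compared the genotypes, with Benjamini-Hochberg adjustment over all tested probes (threshold 0.05). The fit was tested on simulated data. Symbols came from the platform annotation, which gave 1 symbol for 29965 probes, several for 10, and left 16657 unnamed; 29910 were found in the RefSeq table of GRCm38.p6. A gene is its brightest tested probe. For a probe undetected on both arrays of a genotype, a fold is a bound, against the higher of its own value and the lowest detected value per array. Named were every tested member and up to 3 called genes of each other list. Atf4, Ppp1r15a, Ppp1r15b and Lgalsl were added after their values were seen. Genes named as undetected on the arrays of a genotype were added as well. The members and lists were chosen with earlier results of these data known. Between the arrays of a genotype 26.8% (wild type) and 35.9% (knockout) of tested probes differed by more than bead error allows at the 0.05 level, which does not show whether they are separate animals. Alternatives covered background, scaling, the filter, probe choice, variance trend, the replicate block and each array left out.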

Additional observations from a re-analysis of the deposited data

How the results depend on the processing

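Of the 11 called changes none turned in sign under the alternatives that gave a value, 14 for each gene but 13 for Rpn1, which was not tested at a detection p below 0.01. With median scaling 17 ER genes rose and 0 fell, and with an intensity trend or the replicate block 0 fell. Leaving out 1 array gave 2 to 11 ER genes that rose, 0 that fell and 1476 to 3981 called probes of all kinds, against 3988. The replicate block gave 11 ER genes that rose and 3917 called probes. The same-numbered arrays' deviations correlated at 0.02, so the numbers are not known to pair them. The median of the tested ER genes stayed 0.19 to 0.26 above that of all tested genes under all 14. Of the 11 called genes, Derl3 alone kept its call under all 14, and 8 of the 27 uncalled genes passed under at least 1. Where an array was left out, its genotype's lone array was assumed to vary like the other genotype. Probes near background, such as those of Rpn1, Atf6, Eif2ak3 and Derl3, limit the precision of their changes.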
